A study of Mus musculus with 10 samples.

Results

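Cultures of mouse marrow progenitors immortalized by a fusion oncogene were compared with cultures immortalized by introduced homeobox genes, over all genes on the array. The fusion class held 4 arrays, 3 clones of NUP98-NSD1 and 1 MLL-ENL culture, and the homeobox class held 6 arrays, 3 clones of HoxA9 with Meis1 (HoxA9+Meis1) and 3 clones of HoxA9, so that all 10 arrays of the series were used. The classes were taken from the oncogene named in each array's title. All 10 cultures were derived from primary marrow progenitors in medium with stem cell factor and no GM-CSF, and total RNA of each was hybridised to 1 Affymetrix Mouse Genome 430 2.0 array, which reads a gene through 1 or more groups of short probes called probe sets. The labels give neither the strain, age or sex of the mice nor the animal each clone was derived from, so p-values may not reflect spread between animals. In the comparison of the classes, the spread behind them takes in differences between the oncogenes of a class. Both homeobox groups carry HoxA9, and MLL-ENL rests on 1 culture; with the oncogenes as the units, 2 against 2, no exact two-sided permutation test could go below p = 0.333.

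NUP98-NSD1 joins part of a nucleoporin to NSD1, a methyltransferase of histone H3 lysine 36, and MLL-ENL joins the DNA-binding part of the methyltransferase MLL to ENL, a reader of acetylated histones that works with the transcription elongation machinery. Such fusions occur in acute myeloid leukaemia and keep genes of the Hox-A cluster and Meis1 active, whereas the homeobox cultures received HoxA9, alone or with its DNA-binding cofactor Meis1, directly. The comparison asks which genes differ between cultures given such a fusion and cultures given the homeobox factors themselves.

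A probe set was kept when its signal exceeded 369.3, the 40th percentile of all values, on at least 4 arrays, and limma was fitted to log2(signal + 32) of all 29245 kept probe sets with p-values adjusted over them. A gene was called when at least 2 of its kept probe sets passed an adjusted p under 0.05 in the same direction, each with at least a 3-fold difference, and none passed in the other direction. Differences are log2 values of fusion minus homeobox cultures, with their standard error (SE), and levels are array signals. This demand on agreeing probe sets was made because the spiked hybridization controls, which are added to every hybridization, followed the same split: their mean log2 signal over 18 probe sets was 14.01 to 14.13 on the 4 fusion arrays and 13.18 to 13.42 on the 6 homeobox arrays, a difference of 0.76 (exact permutation p = 0.00952, two-sided, the smallest that 210 splits allow). The Actb 3' to 5' signal ratio was 1.18 to 1.43 on fusion arrays and 1.09 to 1.17 on homeobox arrays, without overlap. The difference also moved with brightness: its median over the probe sets was -0.51 among the dimmest 5849 and 0.04 among the brightest 5849, as the plot of difference against brightness shows. The part of these offsets in the results below was not tested. Myeloid markers were bright in both classes. Mpo, the myeloperoxidase of primary granules, had a signal of 196759 to 237929 in fusion cultures and 126200.0 to 151814 in homeobox cultures, a log2 difference of 0.63 (SE 0.07, adjusted p = 0.000154). The highest signal of any probe set was itself split, at 225140 to 268320 on fusion arrays and 138640 to 162300 on homeobox arrays. The part of this split in the Mpo difference was not tested.

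**Figure D1:**
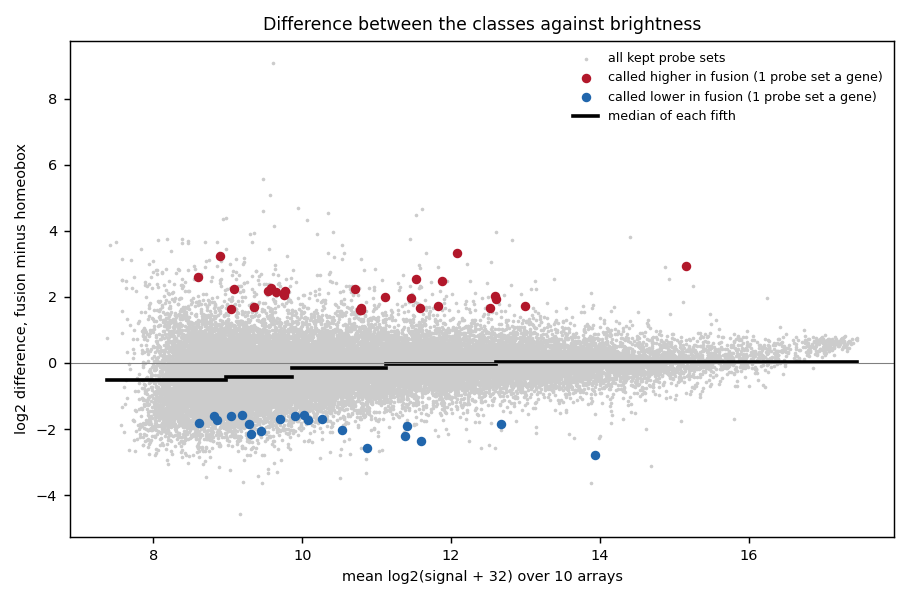
Log2 difference between fusion and homeobox cultures (vertical axis) against the mean log2 signal over 10 arrays (horizontal axis) for all kept probe sets, with 1 point for each called gene in colour and the median of each of 5 equal brightness classes as a black line. The line lies at -0.51 on the left and at 0.04 on the right, and most genes called lower lie among the dimmer probe sets.

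Of 6093 genes with at least 2 kept probe sets, 26 (0.427%) were called higher in fusion cultures and 20 (0.328%) lower. The 4 fusion arrays all lay above the 6 homeobox arrays in 2496 kept probe sets (8.53%) and all below in 4321 (14.8%). Among single probe sets, 340 (1.16%) passed at 3-fold or more as higher and 1058 (3.62%) as lower. The median difference over all 13656 genes measured was -0.17. All 26 higher genes were called again after quantile normalization, after a shift to a common median and after cyclic loess. Each of these scalings raised the median difference of all kept probe sets, from -0.15 to -0.08, 0.09 and -0.02 in that order. They therefore cannot test the higher calls against a shift the other way. Of the 20 lower genes, 2 were called under all 3 of these scalings and 13 under none. A shift of the arrays to equal hybridization controls lowered that median to -0.91. It left 3 higher genes, Alcam, Tmem40 and Vat1, and called 340 genes lower, all 20 among them. In 10 of the 20 lower genes, against 1 of the 26 higher ones, a probe set that the call needs had all arrays of the dimmer class under the signal level and a bound under 3-fold. By the second largest difference of a gene, the one that lay just inside the 3-fold limit (1.585 in log2) was Ptpn12 (1.59) and the one just outside was Id2 (1.58) among higher genes, while Mllt6 (-1.59) lay just inside and Etl4 (-1.58) just outside among lower ones.

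**Figure D2:**
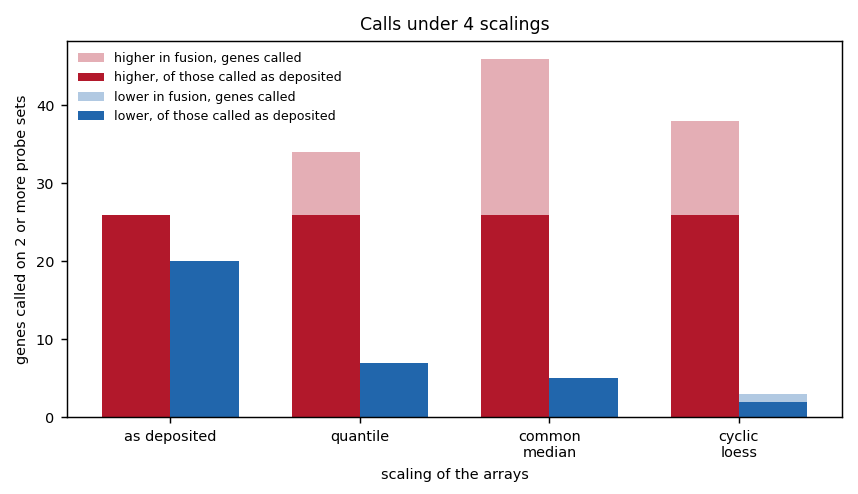
Number of genes called on 2 or more probe sets (vertical axis) as deposited and under 3 other scalings of the arrays (horizontal axis), with the genes already called as deposited in the darker shade. All 26 higher genes remain under each of these scalings, while 7, 5 and 2 of the 20 lower genes remain. The shift to equal hybridization controls, which left 3 higher genes, is not shown.

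Alcam, an adhesion molecule of the immunoglobulin superfamily found on progenitors and activated leukocytes, was called higher on all 3 of its kept probe sets. Its brightest probe set had signals of 1819, 2259.7 and 4829.6 in NUP98-NSD1 clones and 1023 in MLL-ENL, against 303 to 662 with a median of 415 in homeobox cultures, a log2 difference of 2.19 (SE 0.37, adjusted p = 0.00141). Another probe set differed by 3.67, and in the third, where all homeobox values lay under the signal level, Alcam was at least 3.99-fold higher. Every fusion array lay above every homeobox array in all 3 probe sets, with MLL-ENL the lowest of the 4.

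Klf4, a zinc-finger transcription factor that promotes monocyte differentiation, was called on both of its probe sets. The brighter gave 1536, 1352 and 2532 in NUP98-NSD1 clones and 628 in MLL-ENL, against 182 to 353 with a median of 254 in homeobox cultures. The 6 homeobox values all lay under the 369.3 that counted as signal, so the gene was at least 3.45-fold higher in fusion cultures (adjusted p = 0.00097). In the dimmer it was at least 2.12-fold higher (adjusted p = 0.00116), which leaves the call short of 3-fold when bounds replace the fitted differences. Of the 13 kept members of a list of 16 granulocyte and myeloid transcription factors, Klf4 alone was called, and the list's median was 0.47 against -0.17 over all genes.

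Lyz1, a lysozyme of secretory granules, had 91088, 104847 and 186512 in NUP98-NSD1 clones and 129454 in MLL-ENL, against 4826 to 33189.7 with a median of 19884 in homeobox cultures (log2 difference 2.93, SE 0.45, adjusted p = 0.000861). The groups did not overlap, and MLL-ENL stood among the NUP98-NSD1 clones. A second Lyz1 probe set differed by 3.81 and the third, a dim one, by 0.02 (adjusted p = 0.973). The 1 kept probe set of Lyz2, its near-identical neighbour on the chromosome, differed by 2.89 (SE 0.43, adjusted p = 0.000733), and both called Lyz1 probe sets are of a type that can bind related transcripts, so the signal cannot be assigned to either lysozyme gene.

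Cybb, the catalytic gp91phox subunit of the phagocyte NADPH oxidase, was called on all 3 probe sets. The brightest had 9639, 11092 and 41956 in NUP98-NSD1 clones and 19521 in MLL-ENL, against 293 to 8002 with a median of 2378 in homeobox cultures (log2 difference 3.32, SE 0.82, adjusted p = 0.0107). The classes did not overlap in this probe set and overlapped in the other 2, which differed by 2.33 and 2.22. With oncogene as a random block, which lets cultures of 1 oncogene share an error, its adjusted p was 0.051.

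Lima1, also called EPLIN, which bundles and stabilises actin filaments, gave 1562, 1635 and 2576 in NUP98-NSD1 clones and 1673 in MLL-ENL, against 21 to 1097 with a median of 507 in homeobox cultures (log2 difference 2.18, SE 0.70, adjusted p = 0.0341). Another of its probe sets held 1372, 1110.0 and 1439.5 in NUP98-NSD1 clones and 1521 in MLL-ENL, against 39.5 to 181 with a median of 59.7 in homeobox cultures, which makes it at least 3.45-fold higher in fusion cultures (adjusted p = 7.38e-05). The 4 fusion arrays lay above all 6 homeobox arrays in both, with NUP98-NSD1 clone 3 well above the other 3 in the first. Its other 2 kept probe sets differed by 0.83 and 1.24 (adjusted p = 0.116 and 0.0141), under 3-fold and with overlapping classes. The call was lost when NUP98-NSD1 clone 1, 2 or 3, MLL-ENL or HoxA9+Meis1 clone 2 was left out, through the first probe set, whose difference was then 2.02 to 2.26 with an adjusted p of 0.0575 to 0.0888, and with oncogene as a random block (2.17, adjusted p = 0.0847).

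Gsn, the actin-severing protein gelsolin, was called on 3 of 5 kept probe sets. The brightest called one had 11577, 9721 and 15339 in NUP98-NSD1 clones and 10693 in MLL-ENL, against 7629.7, 6179.8 and 3535 in HoxA9+Meis1 clones and 1499.5, 3666 and 2756 in HoxA9 clones (log2 difference 1.65, SE 0.37, adjusted p = 0.00682). No fusion array reached down to the homeobox arrays. Its other 4 kept probe sets differed by 0.44 to 2.43, the 3 called ones being of the cross-binding type.

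Rhou, which acts on the cytoskeleton, had 4656, 3873 and 7775 in NUP98-NSD1 clones and 2311 in MLL-ENL, against 605, 307 and 684 in HoxA9+Meis1 clones and 1044, 1609 and 1910.0 in HoxA9 clones (log2 difference 2.25, SE 0.48, adjusted p = 0.00486). Its other probe set differed by the same 2.25, and the fusion arrays lay above the homeobox arrays in both. HoxA9+Meis1 clones were lower than HoxA9 clones (log2 difference -1.49, adjusted p = 0.0276). It was the 1 member called on 2 probe sets among 16 kept of 18 listed regulators of small GTPases and G proteins, whose median was 0.38.

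Ptpn12, the phosphatase PTP-PEST that acts on focal adhesion proteins, passed on 2 of 4 probe sets. The brighter of these had 17271, 15689.9 and 15251 in NUP98-NSD1 clones and 8646 in MLL-ENL, against 1269, 2135 and 2279 in HoxA9+Meis1 clones and 6702, 6857 and 7630.4 in HoxA9 clones (log2 difference 1.92, SE 0.49, adjusted p = 0.0126). In this probe set MLL-ENL stood just above the HoxA9 clones, and the HoxA9+Meis1 clones far below both: HoxA9+Meis1 minus HoxA9 was -1.92 (adjusted p = 0.00027). The 2 probe sets that did not pass differed by 1.17 and 0.98 (adjusted p = 0.0784 and 0.0726). In both of those MLL-ENL lay below every HoxA9 clone. The call was lost without NUP98-NSD1 clone 2 or 3 or any 1 HoxA9+Meis1 clone, where the second called probe set differed by 1.41 to 1.53, and with oncogene as a random block (1.54). It was also lost with 4 group means, where the oncogenes of a class have equal weight (1.43).

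Vat1, a membrane protein of the quinone oxidoreductase family known from synaptic vesicles, was among the 3 genes still called after the shift to equal controls. Its brightest called probe set had 17556, 15259 and 11948 in NUP98-NSD1 clones and 3746 in MLL-ENL, against 1325, 1279 and 1336 in HoxA9+Meis1 clones and 3611, 2759.9 and 1812 in HoxA9 clones (log2 difference 2.47, SE 0.43, adjusted p = 0.00176). MLL-ENL exceeded the highest HoxA9 clone only narrowly, and NUP98-NSD1 was higher than MLL-ENL by 1.97 (adjusted p = 0.0106). Tests against the 1 MLL-ENL array, here and below, assume that it varies like the other 3 groups, from which the spread comes. Its other kept probe sets differed by 2.87 and 1.29.

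Ak3, the adenylate kinase of the mitochondrial matrix, was called on all 3 probe sets. The brightest had 9362, 11201 and 6939 in NUP98-NSD1 clones and 7144 in MLL-ENL, against 905 to 1852 with a median of 1478 in homeobox cultures (log2 difference 2.54, SE 0.21, adjusted p = 2.97e-05). The 4 fusion arrays were all far above the 6 homeobox arrays. Its other probe sets differed by 1.70 and 1.76, MLL-ENL lying inside the homeobox range in the last (470 against 114 to 652 in homeobox cultures), and without NUP98-NSD1 clone 1 these were 1.49 and 1.57, under the 3-fold limit. With 4 group means the same probe sets differed by 1.57 and 1.30, and the call was lost.

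Ypel2, a member of the conserved Yippee-like family, had 1812, 1156 and 1102 in NUP98-NSD1 clones and 1188 in MLL-ENL, against 304 to 513 with a median of 380 in homeobox cultures (log2 difference 1.69, SE 0.23, adjusted p = 0.00038). All fusion arrays lay above the homeobox arrays, NUP98-NSD1 clone 1 well above the other 3. The second probe set differed by 3.45, and without NUP98-NSD1 clone 1 the first fell short of 3-fold at 1.53. Cuedc1, a protein with a ubiquitin-binding CUE domain, had 1668, 1638 and 1083 in NUP98-NSD1 clones and 517 in MLL-ENL, against 48.6 to 412 with a median of 203 in homeobox cultures (log2 difference 2.60, SE 0.57, adjusted p = 0.00598). Of its 3 kept probe sets, 2 were called and the third differed by 0.26 (adjusted p = 0.621).

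Bmpr1a, a type I receptor for bone morphogenetic proteins, was called on 2 of 4 kept probe sets, and the 4 did not share a direction. The brightest called one had 3349, 3298 and 750 in NUP98-NSD1 clones and 1922 in MLL-ENL, against 169 to 802 with a median of 525 in homeobox cultures (log2 difference 2.06, SE 0.47, adjusted p = 0.00729). NUP98-NSD1 clone 3 lay inside the homeobox range. The other called probe set differed by 1.64 and the remaining 2 by -0.06 and -1.05 (adjusted p = 0.879 and 0.125), and without NUP98-NSD1 clone 1 or 2 or HoxA9+Meis1 clone 2 or 3 the call was lost at 1.43 to 1.51. With 4 group means the call was also lost, at 1.505. The list of 22 genes of TGF-beta signalling and proteoglycans, 19 of them kept, held no other called gene and had a median of -0.21.

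**Figure D3:**
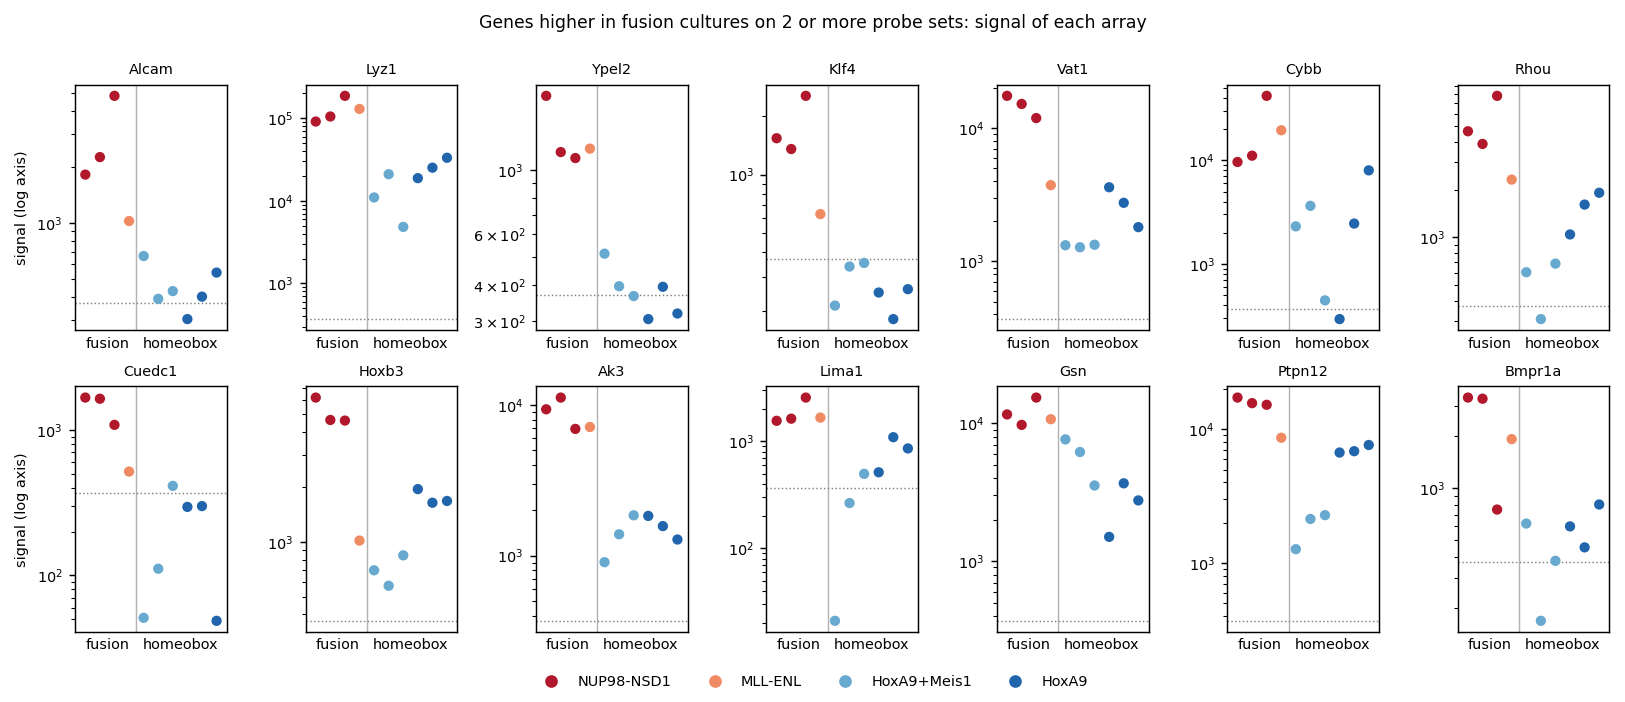
Signal of each array (vertical log axes) in the brightest called probe set of 14 genes called higher, with fusion cultures left of the grey line and homeobox cultures right of it; the dotted line marks the signal of 369.3. The fusion points lie above all homeobox points in every panel except Hoxb3 and Bmpr1a, and MLL-ENL is the lowest of the fusion points in panels such as Alcam, Klf4, Vat1, Rhou and Hoxb3.

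The other 12 genes called higher are named here after their values were seen: Tmem40, Prxl2a, Ces1d, Muc13, Acss2, Tbc1d8, Rai14, Plscr1, Nhsl2, Hipk2, Hspa4 and 4930402H24Rik. In these, the 4 fusion arrays did not lie above the 6 homeobox arrays in as many as 2 probe sets. Over the 26 genes, each in its brightest called probe set, MLL-ENL was the lowest of the 4 fusion arrays in 15 and lay above all 6 homeobox arrays in 20, while all 3 NUP98-NSD1 clones lay above them in 25. The calls rest on a class mean of 3 NUP98-NSD1 arrays and 1 MLL-ENL array, so the last count follows largely from the selection. These positions were not counted over all kept probe sets. NUP98-NSD1 and MLL-ENL differed past the threshold in 6 of the 26, Tmem40, Vat1, Muc13, Hoxb3, Acss2 and Hipk2, each higher in NUP98-NSD1, where 1152 of all kept probe sets (3.94%) passed that test. HoxA9+Meis1 and HoxA9 differed in 6 as well, each lower in HoxA9+Meis1, where 2129 probe sets (7.28%) passed. Tmem40, a membrane protein still called after the shift to equal controls, had 8335, 10050.2 and 13164 in NUP98-NSD1 clones and 1435 in MLL-ENL, against 1309.7 to 2204 with a median of 1462 in homeobox cultures. Its MLL-ENL signal was thus inside the homeobox range, and NUP98-NSD1 exceeded MLL-ENL by 2.82 (adjusted p = 0.00129). In 12 of the 26 genes the call held whichever 1 of the 10 arrays was left out.

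The Hox-A genes and Meis1 were read differently by their different probe sets. One Hoxa9 probe set had 32131, 31804 and 36931 in NUP98-NSD1 clones and 35209 in MLL-ENL, against 25.7, 26.7 and 29.3 in HoxA9+Meis1 clones and 32.4, 50.8 and 25.9 in HoxA9 clones, so that it was at least 84.7-fold higher in fusion cultures (adjusted p = 1.63e-10). The other Hoxa9 probe set had 6783, 6872 and 8481 in NUP98-NSD1 clones and 6478 in MLL-ENL, against 91143, 89613 and 103499 in HoxA9+Meis1 clones and 27259, 43395 and 59375 in HoxA9 clones (log2 difference -3.13, SE 0.33, adjusted p = 9.58e-05). Both probe sets separated the classes completely and in opposite directions, so Hoxa9 was not called. Which parts of the transcript each probe set covers was not analysed here. Of genes with 2 or more passing probe sets, 357 of 1340 (26.6%) had passing probe sets of opposite direction.

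Hoxa10, the neighbour of Hoxa9 and like it a regulator of myeloid progenitors, had in its brighter probe set 4859, 4324 and 11545 in NUP98-NSD1 clones and 7221 in MLL-ENL, against 125 to 409 with a median of 320 in homeobox cultures (log2 difference 4.34, SE 0.34, adjusted p = 2.33e-05). The other kept probe set differed by -0.35 (adjusted p = 0.6). Hoxa5 likewise differed by 3.18 (SE 0.44, adjusted p = 0.000477) in 1 probe set, at 2004, 2479 and 3016 in NUP98-NSD1 clones and 1576 in MLL-ENL, against 64.1 to 444 with a median of 243 in homeobox cultures, and by -0.27 (adjusted p = 0.275) in the other. In both genes the passing probe set put all fusion arrays above all homeobox arrays. Hoxa7 passed the signal level on 3 arrays and so was not tested; it had 339, 1835 and 1334 in NUP98-NSD1 clones and 2096 in MLL-ENL, against 106 to 148 in homeobox cultures. Of 11 listed Hox-A genes 6 were kept, 4 of them with 2 or more probe sets, and none was called on 2.

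Meis1, the cofactor introduced into 3 of the homeobox cultures, had in its brightest probe set 6267, 5655 and 4214 in NUP98-NSD1 clones and 10159.6 in MLL-ENL, against 573, 687 and 558 in HoxA9+Meis1 clones and 16.7, 27.9 and 20.6 in HoxA9 clones (log2 difference 5.09, SE 0.86, adjusted p = 0.00149). In this probe set all fusion arrays lay above the HoxA9+Meis1 arrays, whether or not it reads the introduced Meis1, which was not analysed here, and HoxA9+Meis1 exceeded HoxA9 by 3.57 (adjusted p = 3.29e-05). Its other 2 kept probe sets differed by -0.02 and -0.13 (adjusted p = 0.962 and 0.721) with overlapping groups.

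Hoxb3 was the Hox gene called on 2 probe sets, both higher in fusion cultures. One had 3509, 3791 and 3519 in NUP98-NSD1 clones and 1089.5 in MLL-ENL, against 172, 270 and 270 in HoxA9+Meis1 clones and 569, 908 and 786 in HoxA9 clones (log2 difference 2.58, SE 0.49, adjusted p = 0.00283). The brighter had 6177, 4657 and 4621 in NUP98-NSD1 clones and 1017 in MLL-ENL, against 699, 575 and 844 in HoxA9+Meis1 clones and 1946, 1639 and 1675 in HoxA9 clones (log2 difference 1.60, SE 0.50, adjusted p = 0.0315). In the brighter one MLL-ENL lay below all HoxA9 clones, and NUP98-NSD1 exceeded MLL-ENL by 2.29 (adjusted p = 0.00304). The call was lost when any 1 NUP98-NSD1 clone or any 1 HoxA9+Meis1 clone was left out (1.32 to 1.52, adjusted p = 0.0579 to 0.091), and with oncogene as a random block (1.42, adjusted p = 0.085). It was also lost with 4 group means, where the brighter probe set differed by 1.03.

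**Figure D4:**
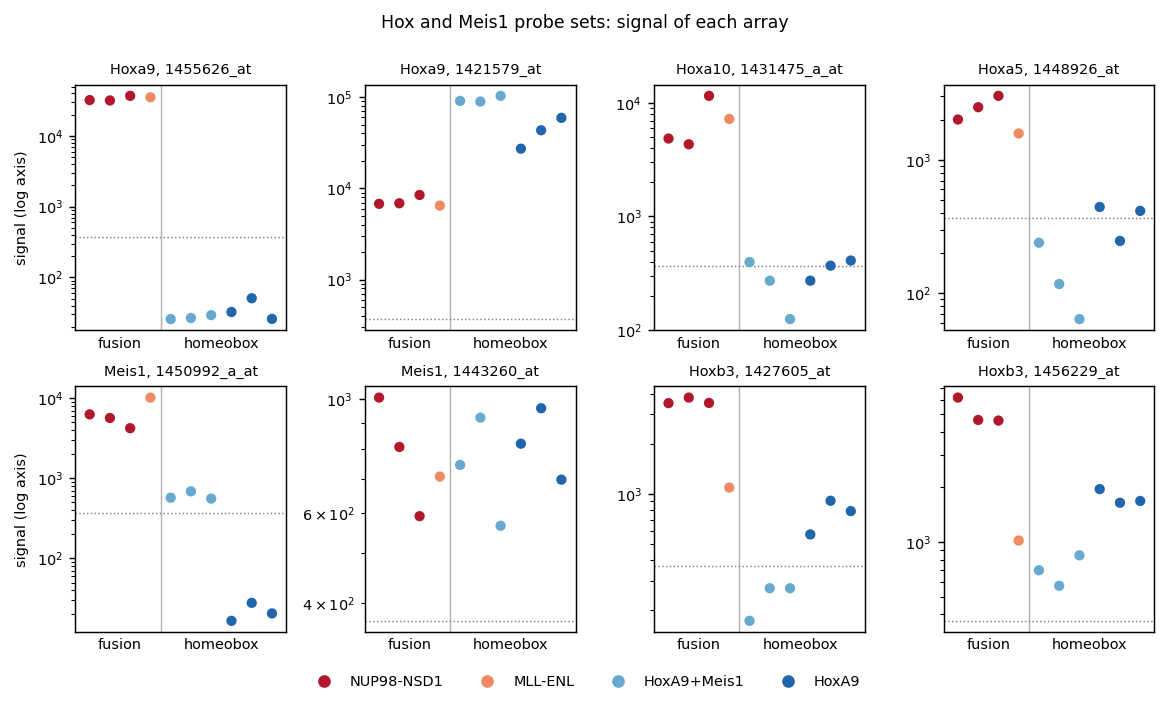
Signal of each array (vertical log axes) in 8 probe sets of Hoxa9, Hoxa10, Hoxa5, Meis1 and Hoxb3, with fusion cultures left of the grey line and homeobox cultures right of it; the dotted line marks the signal of 369.3. The 2 Hoxa9 panels run in opposite directions, and the MLL-ENL point of Hoxb3 lies beside the homeobox points.

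Over all 6093 genes with at least 2 kept probe sets, the brightest and the second brightest had the same sign of difference in 3787. Most genes called higher lie in the upper right of the plot of the first against the second probe set. Rai14 and 4930402H24Rik lie in its lower right, with -0.81 and -0.94 in the second brightest probe set. Bmpr1a, with -0.06 in its brightest probe set, lies in the upper left, as Hoxa9 does.

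**Figure D5:**
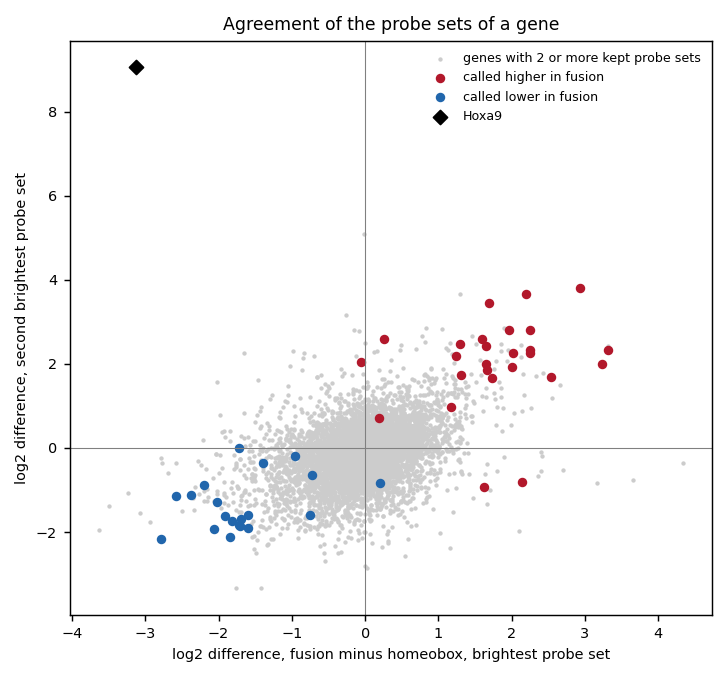
Log2 difference of fusion minus homeobox cultures in the second brightest probe set (vertical axis) against the brightest (horizontal axis) for the 6093 genes with 2 or more kept probe sets, with called genes in colour and Hoxa9 as a diamond. Hoxa9 lies at -3.13 and 9.07, and 3787 genes share a sign in both.

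Many granule genes are read by 1 probe set and so could not meet the demand on agreeing probe sets. Of 7563 genes with 1 kept probe set, 95 (1.26%) passed with at least 3-fold higher signal in fusion cultures and 376 (4.97%) with at least 3-fold lower signal. MLL-ENL lay above all 6 homeobox arrays in 51 of the 95 and not in the other 44, and NUP98-NSD1 and MLL-ENL differed past the threshold in 16. Here too the position of MLL-ENL was not counted over all kept probe sets. RNA came from whole cultures, so fewer cells of a type and less RNA per cell cannot be told apart in what follows.

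Some single-probe-set genes were high in both fusion oncogenes. Elane, the neutrophil elastase of primary granules, had 147012, 163069 and 199729 in NUP98-NSD1 clones and 198245 in MLL-ENL, against 16717, 25137 and 13902 in HoxA9+Meis1 clones and 114550.0, 116367 and 106958 in HoxA9 clones (log2 difference 1.96, SE 0.63, adjusted p = 0.0344). The HoxA9 clones lay not far below the fusion cultures, and the HoxA9+Meis1 clones far below both (HoxA9+Meis1 minus HoxA9 -2.64, adjusted p = 3.27e-05). Cd9, a tetraspanin of the cell surface, had 4636, 4421 and 2701 in NUP98-NSD1 clones and 2199 in MLL-ENL, against 46.8 to 1152 with a median of 107 in homeobox cultures (log2 difference 3.94, SE 0.74, adjusted p = 0.00256). Fos, a subunit of the AP-1 transcription factor, had 9341, 8689 and 11025 in NUP98-NSD1 clones and 7545 in MLL-ENL, against 1213 to 3748 with a median of 3221 in homeobox cultures (log2 difference 1.81, SE 0.31, adjusted p = 0.00158). In Cd9 and Fos no fusion array overlapped the homeobox arrays. Csf3r, the receptor for granulocyte colony-stimulating factor, had 17184, 16686 and 18249 in NUP98-NSD1 clones and 8547 in MLL-ENL, against 2385 to 9302 with a median of 4019 in homeobox cultures (log2 difference 1.75, SE 0.36, adjusted p = 0.00422), with MLL-ENL inside the homeobox range.

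Other granule genes were high in NUP98-NSD1 clones while MLL-ENL lay at or below the homeobox level. Fcnb, a ficolin of myeloid granules, had 24892, 25357 and 82139.7 in NUP98-NSD1 clones and 502 in MLL-ENL, against 638 to 1909.7 with a median of 1483 in homeobox cultures (log2 difference 3.33, SE 1.08, adjusted p = 0.0354). Ngp, a protein of neutrophil secondary granules, had 70399, 88526 and 237055 in NUP98-NSD1 clones and 887 in MLL-ENL, against 1082 to 11961 with a median of 1546 in homeobox cultures. Nkg7, a granule membrane protein, had 27145, 24236 and 15346 in NUP98-NSD1 clones and 508 in MLL-ENL, against 112 to 1216 with a median of 373 in homeobox cultures. MLL-ENL lay below every homeobox array for Fcnb and Ngp and among them for Nkg7, and NUP98-NSD1 minus MLL-ENL was 6.13, 6.95 and 5.32 for Fcnb, Ngp and Nkg7 (adjusted p = 0.003, 0.00378 and 0.000483). These tests set 3 clones against 1 array and take their spread from the groups with clones.

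Mast cell and basophil genes showed the same arrangement. Cpa3, the carboxypeptidase of mast cell granules, had 96364, 94796 and 33297 in NUP98-NSD1 clones and 402 in MLL-ENL, against 221 to 2927 with a median of 799 in homeobox cultures (log2 difference 4.49, SE 1.31, adjusted p = 0.0231). Hdc, the enzyme that makes histamine, had 27230.4, 30195 and 9374 in NUP98-NSD1 clones and 309 in MLL-ENL, against 30.9 to 405 with a median of 96.5 in homeobox cultures (log2 difference 5.57, SE 1.09, adjusted p = 0.00327). For both genes MLL-ENL lay within the homeobox range, and NUP98-NSD1 exceeded it by 7.28 and 5.86 (adjusted p = 0.00521 and 0.0109). Fcer1a, the alpha chain of the high-affinity IgE receptor, passed as well (log2 difference 4.16, SE 1.06, adjusted p = 0.0125), with 29473, 19971 and 1115 in NUP98-NSD1 clones and 532 in MLL-ENL, against 44.8 to 539 in homeobox cultures.

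The lists of cell type markers give these values in their setting. Of 17 primary granule genes 15 were kept, Lyz1 was called on 2 probe sets, and Elane, Fcnb, Lyz2 and Nkg7 passed on 1, with a list median of 1.24. The summed signal of the primary granule genes was 1253500 to 1819700 in fusion cultures and 544800 to 844000 in homeobox cultures, without overlap. Such a gap was not particular to granule genes. The sum of the listed ribosomal protein genes was 2019400 to 2331600 in fusion cultures and 1376300 to 1673400 in homeobox cultures. The part of the split in the highest signals in these sums was not tested. Of 20 secondary granule and neutrophil genes 14 were kept, Cybb was called, and Ngp, Mmp8, Pglyrp1 and Lrg1 passed on 1 probe set, with a median of 2.33. Mmp8 is a collagenase of neutrophil granules, Pglyrp1 a peptidoglycan-binding granule protein and Lrg1 a glycoprotein of neutrophil granules. The summed signal of the secondary granule genes was 111340 to 1152900 in fusion cultures and 33890 to 142680 in homeobox cultures, with overlap. Of 19 mast cell, basophil and eosinophil genes 8 were kept and 3 passed, with a list median of 3.02. The summed signal of these genes was 5759.9 to 284640 in fusion cultures and 7565.1 to 25346 in homeobox cultures, so that these ranges overlapped as those of the secondary granule genes did. None of 19 kept monocyte and macrophage genes of 20 was called or passed at 3-fold (median 0.41). The part of such cells in the granule gene differences was not tested.

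None of 7 kept T and NK lymphoid genes, of 16 listed, was called or passed at 3-fold (median -0.34). Of 16 B lymphoid genes 11 were kept, and Vpreb3 and Ms4a1 passed as lower on 1 probe set (list median -0.77). The list of antigen presentation and dendritic cell genes kept 12 of 16 members, and H2-Ob and Siglech passed as lower on 1 probe set (median -0.71). H2-Ob, the beta chain of H2-O, which modulates peptide loading of MHC class II, had 315, 7.96 and 33.8 in NUP98-NSD1 clones and 27.1 in MLL-ENL, against 3665, 3707 and 3023 in HoxA9+Meis1 clones and 525, 1233 and 2385 in HoxA9 clones. All 4 fusion values lay under the signal level, so H2-Ob was at least 5.08-fold lower in fusion cultures (adjusted p = 0.000663). Of 25 kept genes of the H3K36 methylation and MLL complexes, from 26 listed, none was called or passed at 3-fold, and the median was -0.04.

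Among the 20 genes called lower, the median signal in the brighter class was 1545, against 4386 for the 26 genes called higher, and 13 of the 20 lay under 2000. Cds1, a CDP-diacylglycerol synthase of phospholipid synthesis, had 250, 247 and 158 in NUP98-NSD1 clones and 444 in MLL-ENL, against 707 to 1342 with a median of 985 in homeobox cultures (log2 difference -1.85, SE 0.29, adjusted p = 0.000874). The groups did not overlap. The second probe set showed Cds1 lower in fusion cultures by a factor of at least 2.09 (adjusted p = 0.00148), and its call held without any 1 array but not after cyclic loess (-1.49). Col25a1, a membrane-spanning collagen, had 128, 214 and 457 in NUP98-NSD1 clones and 360 in MLL-ENL, against 997 to 1588 with a median of 1151 in homeobox cultures (log2 difference -2.07, SE 0.31, adjusted p = 0.00074), and its call was lost without MLL-ENL, where the second probe set, at least 1.89-fold lower over all arrays, differed by -1.37.

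Meg3, an imprinted long noncoding RNA, was called under all 3 scalings and in all 10 fits that left out 1 array, but on 2 of its 8 kept probe sets. The brighter of these had 52.6, 474 and 308 in NUP98-NSD1 clones and 268 in MLL-ENL, against 1013 to 1275 with a median of 1137 in homeobox cultures (log2 difference -2.17, SE 0.41, adjusted p = 0.00268). The classes did not overlap there, yet over the 8 probe sets the difference ranged from -2.17 to 0.56. In the other called probe set the NUP98-NSD1 clones had 156, 140 and 126, while MLL-ENL (790) lay inside the homeobox range (748 to 1089). That probe set differed by -1.955. With 4 group means it differed by -1.39, under the 3-fold limit, and the Meg3 call was lost. Ighm, the heavy chain of immunoglobulin M, was the other gene called under all 3 scalings, and is named here after its values were seen. It was called on 2 of its 6 kept probe sets, and the differences of the 6 ranged from -2.79 to 0.30. Its brightest probe set had 2562, 3059 and 3036 in NUP98-NSD1 clones and 23393 in MLL-ENL, against 17729 to 53305 with a median of 34669.5 in homeobox cultures (log2 difference -2.79, SE 0.55, adjusted p = 0.00333). MLL-ENL lay inside the homeobox range, and NUP98-NSD1 minus MLL-ENL was -3.01 (adjusted p = 0.00207).

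Sox4, a transcription factor active in progenitors, was called lower on 2 of 7 kept probe sets. One had 4056, 4780.2 and 2474 in NUP98-NSD1 clones and 1678 in MLL-ENL, against 22316, 24358 and 16847 in HoxA9+Meis1 clones and 5487, 5915 and 5471 in HoxA9 clones (log2 difference -1.85, SE 0.50, adjusted p = 0.017). The fusion arrays lay just below the HoxA9 clones and far below the HoxA9+Meis1 clones, which exceeded HoxA9 by 1.89 (adjusted p = 0.000707). Its brightest probe set differed by -0.73 (adjusted p = 0.179). The call was lost without NUP98-NSD1 clone 2 or 3, MLL-ENL or HoxA9 clone 2, where its second probe set differed by -1.48 to -1.78 with an adjusted p of 0.0504 to 0.0871, and with oncogene as a random block (adjusted p = 0.102). It was called under none of the 3 other scalings.

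Srr, the serine racemase, had in its brightest probe set 1544, 716 and 1155 in NUP98-NSD1 clones and 1228 in MLL-ENL, against 3369, 3840.3 and 5079.7 in HoxA9+Meis1 clones and 9523, 8792 and 8055 in HoxA9 clones (log2 difference -2.38, SE 0.32, adjusted p = 0.000422). The 3 sets of cultures stood apart in that order. Of its 6 kept probe sets 2 were called, but the dimmer of them had all fusion values under the signal level and homeobox values of 167 to 492, so that it gives no fold above background. The others differed by 0.30, 0.27, -0.57 and -1.11 (adjusted p = 0.286, 0.453, 0.0959 and 0.00957). The call was lost without NUP98-NSD1 clone 2 and with oncogene as a random block, where the adjusted p of the dimmer called probe set was 0.0532 and 0.0649. Mllt6, a partner gene of MLL fusions also known as AF17, was called on 2 of 3 probe sets, of which the brighter had 60.5, 469 and 394 in NUP98-NSD1 clones and 397 in MLL-ENL, against 753 to 993 with a median of 886 in homeobox cultures (log2 difference -1.59, SE 0.42, adjusted p = 0.0148). Without NUP98-NSD1 clone 1, the lowest array, the difference was -1.02, and the call was also lost without MLL-ENL, HoxA9+Meis1 clone 1 or HoxA9 clone 2 or 3 (differences of -1.55 to -1.58) and with oncogene as a random block (adjusted p = 0.0708). With 4 group means the difference was -1.42, and the call was lost. The third kept probe set of Mllt6, its brightest, differed by -0.75 (adjusted p = 0.0827) with overlapping classes.

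The other 8 lower genes whose classes did not overlap in 2 or more probe sets were Tmem191c, 3300002A11Rik, Gria2, Rundc3a, Tmprss2, Epha7, Slc9a3r2 and Fibp. Their brightest called probe sets had differences of -2.03 for Tmem191c to -1.59 for Fibp, and all but Epha7 needed a probe set with a bound under 3-fold. None of the 8 kept its call in all 10 fits that left out 1 array. The brightest kept probe set of Fibp differed by 0.20 (adjusted p = 0.253). A kept probe set of Tmprss2 differed by -0.09 (adjusted p = 0.892), and 2 of Slc9a3r2 by -0.36 and -0.35 (adjusted p = 0.596 and 0.277). In the remaining genes of the 8 every kept probe set passed as lower.

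Genes of the fusions and of progenitor identity were examined whatever their call. Nsd1 in its brighter kept probe set had 937, 603 and 795 in NUP98-NSD1 clones and 5223 in MLL-ENL, against 1655 to 5168 with a median of 2804 in homeobox cultures (log2 difference -1.22, SE 0.53, adjusted p = 0.101), and NUP98-NSD1 minus MLL-ENL was -2.72 (adjusted p = 0.0215). Nup98 differed by 0.24 (adjusted p = 0.158) in 1 probe set and by -0.52 (adjusted p = 0.00703) in the other. Neither gene gives a check of the introduced fusion, since the positions of the probes were not analysed here. Kit, the receptor for the stem cell factor in the medium, differed by 0.27 (SE 0.19, adjusted p = 0.278) in its brighter probe set, with 17046 to 29049 in NUP98-NSD1 clones and 14242 in MLL-ENL, against 14446 to 18944 in homeobox cultures.

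For Flt3 and Cd34, receptor and surface markers of early progenitors, the homeobox class was not 1 population. Flt3 had 3128, 4193 and 2227 in NUP98-NSD1 clones and 709 in MLL-ENL, against 34997, 30939 and 23470.2 in HoxA9+Meis1 clones and 1047, 702 and 1429.9 in HoxA9 clones (log2 difference -1.35, SE 1.19, adjusted p = 0.404). Cd34 had 32329.9, 29092 and 12432 in NUP98-NSD1 clones and 2723 in MLL-ENL, against 48216, 48720.3 and 50766 in HoxA9+Meis1 clones and 97.8, 93.9 and 1845 in HoxA9 clones (log2 difference 1.77, SE 1.88, adjusted p = 0.495). The fusion cultures lay between the 2 homeobox groups for Cd34, and HoxA9+Meis1 exceeded HoxA9 by 4.81 for Flt3 and 7.30 for Cd34 (adjusted p = 1.44e-05 and 0.000707).

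The promoters of genes called higher were searched for motifs of the families to which HoxA9 and Meis1 belong and of 2 other factor families. RefSeq sequences of the 250 bases before the transcript start (GRCm38.p6) were found for 22 of the 26 higher genes, 35 promoters in all, and searched on both strands for 4 motifs, among them MEIS (TGACAG) and HOX-PBX (TGATTNAT). The MEIS letters occurred in 20% of these promoters, against 15.9% of the 32851 RefSeq promoters searched, and the HOX-PBX letters in 2.86% against 2.82%. That is 7 and 1 of the 35 promoters. The ETS letters NGGAAGT occurred in 17.1% against 19.6% and the CEBP letters TTNCNNAA in 31.4% against 36.8%. In 22 promoters of 17 lower genes, MEIS letters occurred in 9.09% and HOX-PBX letters in none. Shown are the 3 described genes with a match, chosen after the matches were seen, with the matched letters in capitals: Gsn at chr2:35266494-35266743 on the plus strand and Ypel2 at chr11:86993763-86994012 on the minus strand with a MEIS match (in Ypel2 on the opposite strand), and Vat1 at chr11:101466200-101466449 on the minus strand with a HOX-PBX match on the opposite strand.
Gsn: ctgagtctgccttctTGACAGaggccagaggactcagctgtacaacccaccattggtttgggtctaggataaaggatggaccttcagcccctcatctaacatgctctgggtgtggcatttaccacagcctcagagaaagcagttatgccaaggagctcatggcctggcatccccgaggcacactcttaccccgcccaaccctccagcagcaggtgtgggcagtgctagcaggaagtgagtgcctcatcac
Ypel2: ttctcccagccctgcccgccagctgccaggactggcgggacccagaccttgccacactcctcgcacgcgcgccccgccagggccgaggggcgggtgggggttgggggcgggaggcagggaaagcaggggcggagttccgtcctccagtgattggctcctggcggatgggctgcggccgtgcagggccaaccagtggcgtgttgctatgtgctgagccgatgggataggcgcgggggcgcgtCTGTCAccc
Vat1: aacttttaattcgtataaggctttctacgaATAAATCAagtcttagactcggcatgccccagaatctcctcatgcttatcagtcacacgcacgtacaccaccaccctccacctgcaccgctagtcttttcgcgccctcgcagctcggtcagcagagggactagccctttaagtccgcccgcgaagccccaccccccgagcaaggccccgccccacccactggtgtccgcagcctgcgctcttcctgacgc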

How the data were processed

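Signals of 45101 probe sets on 10 arrays were taken as intensity values from the table the authors deposited. The sources used here do not give the software that made them; every array's mean after trimming 2% at each end is 2500.01 to 2500.02, so the deposited intensities had been scaled to a common mean. log2 values were computed from the deposited signals after adding 32. The 64 control probe sets were left out, and probe sets above 369.3 (the 40th percentile of all values) on at least 4 arrays were kept. Symbols came from GEO's platform annotation: 34945 probe sets had 1 symbol, 932 several and 9160 none, and 34741 symbols were updated by Entrez ID through RefSeq's table. limma 3.58.1 in R 4.3.3 was fitted with 2 class means (4 and 6 arrays, 8 residual degrees of freedom), eBayes with an intensity trend and Benjamini-Hochberg adjustment over 29245 probe sets, two-sided; every adjusted p is from limma. Differences between the groups of a class are from a limma fit of 4 group means. Calling a gene needed 2 probe sets at 3-fold, as the report states. Where all arrays of the dimmer class lay under 369.3, the fold is a bound with that class set at 369.3. Named are up to 14 of the largest medians in each direction among called genes whose classes did not overlap in 2 or more probe sets, called members of the gene lists, list members whose counts are given, and 10 genes of the oncogenes and of progenitor identity. The members and lists were chosen with earlier results of these data known. Clone numbers do not pair the samples: deviations of same-numbered clones correlated at -0.066 to 0.047 (9 pairs), against -0.064 to 0.059 for the others (18 pairs). The number of arrays limits the precision. The fit was tested on simulated data. Alternatives covered scaling, offset, filter, model, block, probe set types, fold limit, and leaving out each array.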

Additional observations from a re-analysis of the deposited data

Results flagged for a closer look

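The hybridization controls, which the main comparison of genes leaves out, were 0.759 higher in log2 on fusion arrays than on homeobox arrays, without overlap.

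Within the fusion class 4 signals lay far from the other 3, judged by the gap to the nearest array as a share of the range. These were Ypel2, with NUP98-NSD1 clone 1 highest (0.849), Lima1, with NUP98-NSD1 clone 3 highest (0.863), Hoxb3, with MLL-ENL lowest (0.838), and Mllt6, with NUP98-NSD1 clone 1 lowest (0.905). They came from 56 groups of arrays in 28 genes, and chance gives about 1 in 20 groups.

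Some called genes differed inside a class past the threshold of the limma fit of 4 group means. NUP98-NSD1 exceeded MLL-ENL by 1.967 for Vat1 and 2.292 for Hoxb3. HoxA9+Meis1 minus HoxA9 was -0.982 for Vat1, -1.491 for Rhou, -1.287 for Hoxb3, -1.923 for Ptpn12, -1.114 for Srr and 1.89 for Sox4.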

How the results depend on the processing

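As deposited, 9307 probe sets passed and 26 genes were called higher and 20 lower in fusion cultures. Quantile normalization gave 34 and 7 genes, a common median 46 and 5, cyclic loess 38 and 3, and equal hybridization controls 20927 probe sets with 3 and 340 genes. Of passing probe sets, 35.7% were higher as deposited, 41.5% after quantile normalization, 64.1% with a common median, 49.5% after cyclic loess and 1.6% with equal controls; the median difference of all probe sets was -0.15, -0.08, 0.09, -0.02 and -0.91. An offset of 1 gave 27 and 33 genes and one of 100 gave 19 and 4. No filter gave 44 and 23, a filter at the 60th percentile 17 and 5. Fitting 4 group means gave 21 and 33, and oncogene as a random block (correlation 0.233) 5448 probe sets with 16 and 12. Without HoxA9 arrays 63 genes were higher and 21 lower, and without HoxA9+Meis1 arrays 5177 probe sets passed with 27 and 10. Leaving out _x_at, _s_at and _a_at probe sets gave 12 and 12, a 2-fold limit 72 and 125, and a 4-fold limit 12 and 2. A minimum mean signal of 1000 gave 20 and 4, and bounds in place of fitted differences where the dimmer class lay under the signal level 25 and 10; both were chosen after seeing the data. With each array left out in turn, 7632 to 9319 probe sets passed, 18 to 64 genes were higher (64 without MLL-ENL) and 12 to 35 lower (35 without NUP98-NSD1 clone 1). With the clone number as a replicate block and MLL-ENL left out, 55 genes were higher and 24 lower; the numbers do not pair the samples. Flt3 turned to 1.05 without HoxA9+Meis1 arrays, Cd34 to -1.88 without HoxA9 arrays and Kit to -0.49 with equal controls. The cause was not tested. Of the 20 lower genes 13 lay under a signal of 2000, which limits these calls.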
